A study of Pistacia chinensis with 8 samples.

Results

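The change of miRNAs from stage B to stage C was followed in inflorescence buds of dioecious female and dioecious male plants of Chinese pistache (Pistacia chinensis), a tree whose plants mostly carry flowers of a single sex. These buds gave 4 of the 8 small RNA libraries of the study, chosen by the sex type in the labels. They were female buds of strain C1 at stage B, female buds of strain C1 at stage C, male buds of strain X1 at stage B and male buds of strain X1 at stage C, with 1 library in each group. The other 4 libraries came from monoecious plants of strain T2. The labels name the stages B and C of floral development without further definition and report no treatment, and they do not say whether a library came from 1 tree or from pooled buds. Sex type and strain were confounded, so a difference between female and male buds cannot be told apart from a difference between C1 and X1. The comparison asked which miRNAs and families changed between the stages in both sexes, and which did so in a single sex.

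Plant miRNAs are cut from hairpin precursors by a Dicer-like enzyme, and the guide strand is loaded into an Argonaute protein that cleaves or represses matching messenger RNAs. Conserved families act on transcription factors that time flowering, set organ identity and read auxin, while others act on copper proteins, nutrient transporters, disease resistance genes and the silencing machinery itself. In buds of flowering plants, miR159, miR166 and miR319 are known as abundant families that act on GAMYB-like, HD-ZIP III and TCP transcription factors. No messenger RNA was measured, so neither the targets nor marker genes of bud tissues could be read, and 0 rows carried the name of an animal miRNA.

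The libraries held 1159015 miRNA reads in female and 859476 in male buds at stage B, and 473553 and 419169 at stage C. Of the 471 rows of the count table, 342 and 334 were detected at stage B and 356 and 353 at stage C in female and male buds. Levels are given as TMM-scaled CPM, on which 3 reads correspond to 3.62 and 3.73 CPM in female and male buds at stage B and to 5.20 and 5.84 CPM at stage C. Many rows are near-identical names that share reads, so 226 rows with enough reads to be tested made 186 distinct groups, and 215 further rows with reads were not tested. Spearman correlations across rows, which are not independent of each other, were 0.918 between the sexes at each stage, 0.859 between the stages in female buds and 0.896 in male buds. Buds are bulk tissue, in which fewer cells of a type and less RNA per cell cannot be told apart.

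More miRNAs were higher than lower at stage C. The copper family miR408 rose from 19.3 to 504 CPM in female buds and from 19.9 to 167 CPM in male buds, and the auxin family miR393, the silencing family miR403 and the copper family miR398 rose along with it. The rows that fell included 3 predicted miRNAs and several rows of miR159 and miR166. The joint edgeR test of stage took its spread from differences between the female and the male change, largely shared across rows. A small SE therefore does not show that the sexes agreed for a row. The SE was 0.57 for mes-miR477d (log2 changes of 5.03 in female and 0.74 in male buds) and 0.58 for novel_56 (-3.98 and -4.09). At a Benjamini-Hochberg adjusted p under 0.05, 72 of 226 rows (31.9%) were higher and 19 (8.41%) were lower. After near-identical rows of a family were counted once, 34 of 86 families and predicted miRNAs (39.5%) were higher and 5 (5.81%) lower. The p-values measure the spread between these 4 libraries, since no group had a replicate. When the dioecious stage effect was fitted beside the monoecious libraries, 8 in all, 21 rows were higher and 8 lower. All 21 and 4 of the 8 were among the rows called above. Of the called rows named by rule, 18 lost their call in that edgeR fit and 6 kept it. The lost ones included novel_56, novel_44 and osa-miR408-3p (adjusted p = 0.0554 each), gma-miR403a (0.0574), ata-miR393-5p (0.0884), novel_25 (0.107) and ath-miR398a-3p (0.225). In the family test novel_56 and novel_44 kept theirs. With the female B, female C, male B or male C library left out, the change rests on the ratio of the other sex alone and its spread on the monoecious buds, and 0 rows passed in any of these fits. Such fits have wide standard errors, and their 0 says nothing of the stability of the folds. For novel_100 the log2 change was 5.50 to 6.09 (SE 1.58 to 1.98), against 6.05 (SE 0.64) with all 4 libraries. Of the families described here, miR169, miR393, miR398, miR408, miR6478 and miR159 were also called in that fit of 8 libraries, while miR168, miR171, miR390, miR403, miR477 and miR858 (adjusted p between 0.0562 and 0.304) and miR1511, miR5139 and miR8155 (between 0.0638 and 0.0854) were not.

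How many miRNAs counted as lower depended on the scaling between libraries. The median log2 change of the 226 rows was 0.27 with TMM factors, 0.03 with RLE factors, 0.84 with library totals alone and -0.25 with TMM factors computed before the filter on low counts. The calls split into 68 higher and 45 lower with RLE factors, 101 and 8 with library totals and 45 and 38 with TMM before the filter. Under all 4 scalings, 45 of the 72 rows stayed called higher and 8 of the 19 stayed called lower. Among families and predicted miRNAs, 20 of 34 and 3 of 5 stayed called. Their fits used the same factors, computed from rows with every near-identical name included, and factors computed from families were not tried. The median log2 change of families and predicted miRNAs was 0.85 with TMM factors and 0.61 with RLE factors. It was 1.42 with library totals and 0.34 with TMM before the filter. The share of families called higher is thus relative to these factors. Changes below are relative to the TMM scaling, and each family with at least 100 reads that lost its call or turned its sign under another of these scalings is marked.

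Each sex was also read alone, as the ratio of stage C to stage B, with at least 2-fold as the limit and no test. By that rule 64 rows (28.3%) were higher in both sexes and 15 (6.64%) lower in both. A further 12 rows (5.31%) were past 2-fold upward in female buds alone and 28 (12.4%) downward, against 15 (6.64%) upward and 9 (3.98%) downward in male buds alone. In families and predicted miRNAs the counts were 31 (36%) higher in both, 4 (4.65%) lower in both, 7 (8.14%) higher and 8 (9.3%) lower in female buds, and 11 (12.8%) higher and 1 (1.16%) lower in male buds. No tested row (0%) and no tested family (0%) passed 2-fold in opposite directions with TMM scaling, while miR535 did so with RLE factors on few reads. Scaling moved the counts of lower rows, with 3 rows lower in both sexes with library totals, 24 with RLE factors and 41 with TMM before the filter. The joint test called 63 of the 64 rows higher in both sexes and 14 of the 15 lower in both. The 2-fold rule and the joint test read the same libraries with the same scaling, so this overlap is no separate support. With TMM scaling, both stage C levels lay above both stage B levels in 91 rows (40.3%) and 41 families and predicted miRNAs (47.7%), and below them in 61 rows (27%) and 18 families and predicted miRNAs (20.9%). Groups that did not overlap were thus common, and the same statement about a named miRNA is a description. The log2 ratios of the sexes correlated with Pearson's r of 0.81 and Spearman's rho of 0.801 across 225 rows, which share libraries and scaling factors and are not independent.

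**Figure D1:**
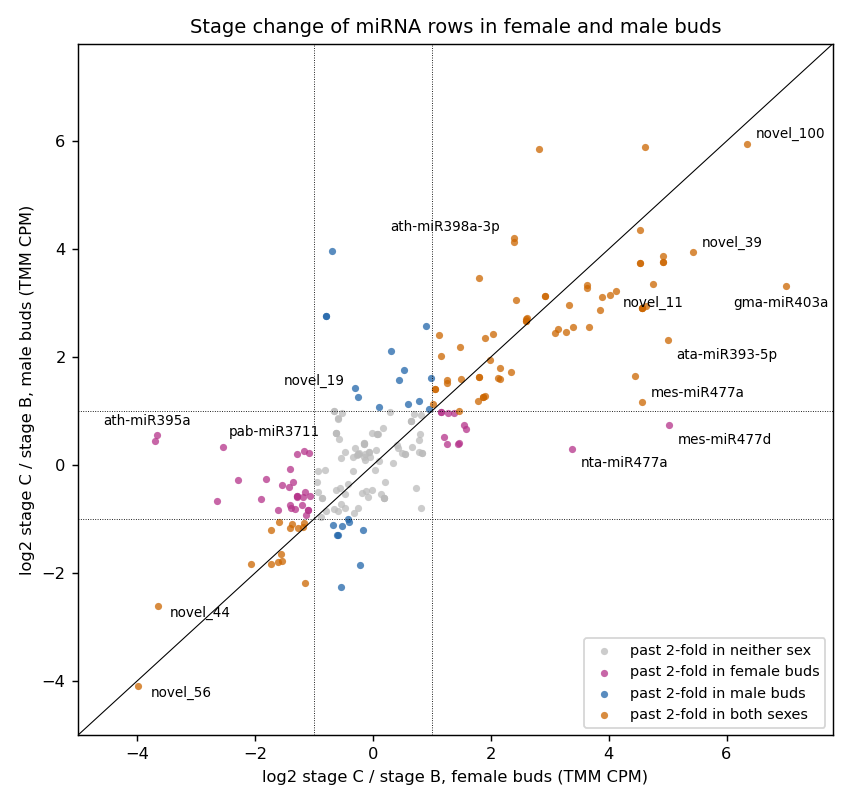
Log2 ratio of stage C to stage B in female buds (x axis) and male buds (y axis) for the 225 tested rows with a ratio in both sexes, in TMM CPM. Dotted lines mark 2-fold and the solid line equal change, and colours give the sex in which a row passed 2-fold. The upper left and lower right corners past 2-fold are empty, and the miR477 rows lie to the right of the line of equal change.

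Families that act on copper proteins had some of the largest rises. miR408, which targets plantacyanin and laccase transcripts, held 16 and 291 reads in female and 16 and 86 reads in male buds at stages B and C. That was a ratio of 26.1 in female buds (95% counting interval 15.8 to 46.3) and of 8.42 in male buds (4.90 to 15.4), and the fitted log2 change was 3.90 (SE 0.64, edgeR adjusted p = 4.55e-07). The levels of the sexes were close at stage B, and both stage C libraries stood above both stage B libraries. miR398, which targets copper/zinc superoxide dismutase transcripts, went from 130 to 1222 CPM in female and from 145 to 1096 CPM in male buds (fitted log2 change 3.07, SE 0.45, adjusted p = 3.51e-08). Its ratios of 9.38 and 7.54 were close to each other as a family sum. Its row ath-miR398a-3p had unlike ratios, 5.27 in female and 17.6 in male buds. In the list of nutrient and copper families, 2 of the 4 tested members rose, 0 fell and 2 did not pass. That was 50% higher and 0% lower, beside 39.5% and 5.81% of all 86 features. The median fitted change of the list was 2.03, beside 0.85 over all 86 features tested.

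The nutrient families outside the copper pair did not pass the joint test. miR395, which targets ATP sulfurylases and a sulphate transporter, stood at 156 and 170 CPM in female and at 52.2 and 197 CPM in male buds, with an adjusted p of 0.152. The male stage B library was the low one among the 4. The family sum hid unlike rows, since 3 of its 5 tested rows rose, 0 fell and 2 did not pass, as given further on. Over all 226 tested rows, 31.9% were higher and 8.41% lower. miR399, which targets the PHO2 ubiquitin conjugase of phosphate homeostasis, stood at 1016 and 492 CPM in female and 773 and 717 CPM in male buds, with an adjusted p of 0.243 and a fitted change whose sign turned with library totals.

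In the auxin list, miR393 and miR390 rose (50%, beside 39.5% of all 86 features), 0 members fell (beside 5.81%) and 2 did not pass. miR393, which targets the TIR1 and AFB auxin receptors, stood at 8.44 and 243 CPM in female and at 7.46 and 42.8 CPM in male buds at stages B and C. Its fitted log2 change was 3.81 (SE 0.75, adjusted p = 1.09e-05), from ratios of 28.7 (95% counting interval 13.6 to 72.8) and 5.75 (2.26 to 17.3). Both stage C levels lay above both stage B levels, and the male stage C level rested on 22 reads. miR390, the trigger of TAS3 small RNAs that silence auxin response factors, went from 271 to 1001 CPM in female and from 523 to 1287 CPM in male buds (fitted log2 change 1.59, SE 0.42, adjusted p = 0.000925). That call was lost with TMM before the filter (adjusted p = 0.170).

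The families that guide cleavage of auxin response factors themselves, miR160 and miR167, did not pass. miR160 stood at 475 and 321 CPM in female and 644 and 648 CPM in male buds, with a fitted change that was negative with TMM and positive with library totals. miR167 stood at 3536 and 2507 CPM in female buds and at 4148 and 7090 CPM in male buds, lower at stage C in female and higher in male buds, with an adjusted p of 0.746 and a fitted sign that turned with RLE factors. The median fitted change of the 4 auxin families was 0.86, close to the 0.85 of all features.

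Both tested families of the silencing list rose (100%, beside 39.5% of all 86 features). miR403, which targets AGO2 transcripts, went from 68.7 to 762 CPM in female and from 103 to 629 CPM in male buds (fitted log2 change 3.03, SE 0.50, adjusted p = 4.55e-07). miR168, which targets AGO1 transcripts, went from 356 to 783 CPM in female and from 336 to 933 CPM in male buds (1.31, SE 0.43, adjusted p = 0.00839). The groups did not overlap in either family, but miR168 lost its call with TMM before the filter (adjusted p = 0.324). The list median was 2.17.

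Among floral organ and meristem regulators, 2 of 8 tested families rose, 1 fell and 5 did not pass, and the list median was 0.07. That was 25% higher and 12.5% lower, beside 39.5% and 5.81% of all 86 features. miR171, which targets GRAS regulators of the shoot meristem, went from 798 to 2525 CPM in female and from 1419 to 4399 CPM in male buds. Its ratios of 3.16 and 3.10 were nearly equal, and its fitted log2 change was 1.65 (SE 0.38, adjusted p = 0.000138), lost with TMM before the filter (adjusted p = 0.121). miR169, which targets NF-YA transcription factors, rose on few reads, from 2 to 35 in female and from 3 to 39 in male buds (fitted log2 change 4.40, SE 0.79, adjusted p = 2.05e-06).

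The most abundant families were the ones that were flat or lower. miR159 stood at 493548 and 230280 CPM in female and at 322272 and 206197 CPM in male buds at stages B and C, with both stage C levels below both stage B levels. It fell by 0.87 on the log2 scale (SE 0.37, adjusted p = 0.0491), just inside the limit. With library totals alone its change was -0.29 (adjusted p = 0.361), and the call was also lost at a minimum of 50 reads (0.0988) and with every near-identical row summed (0.0858). miR166 had a change of nearly the same size, with 366386 and 163869 CPM in female and 279577 and 190938 CPM in male buds, and lay just outside the limit (fitted log2 change -0.86, SE 0.37, adjusted p = 0.0512, and 0.0291 with RLE factors). The other family of this size had opposite signs in the sexes. miR319 stood at 149903 and 168196 CPM in female and 142965 and 129358 CPM in male buds, and its fitted change of 0.01 (SE 0.36) turned negative with RLE factors and with TMM before the filter.

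The remaining floral families did not pass. miR396, which targets growth-regulating factors, stood at 13925 and 12408 CPM in female and 14720 and 8611 CPM in male buds, with a fitted change of -0.47 that turned positive with library totals. miR394, which targets the F-box gene LEAF CURLING RESPONSIVENESS, stood at 1464 and 3370 CPM in female and at 1234 and 1778 CPM in male buds, and lay just outside the limit (adjusted p = 0.0512). miR164, which targets NAC genes of organ boundaries, stood at 996 and 925 CPM in female and 789 and 1030 CPM in male buds, with a sign that turned with RLE factors. The stages overlapped in miR164, while both stage C levels lay above both stage B levels in miR394 and below them in miR396.

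None of the 3 phase change and flowering time families passed, and their list median was 0.74. Over all 86 features, 39.5% were higher and 5.81% lower. miR172, which targets AP2-like floral genes, stood at 293 and 407 CPM in female and 247 and 265 CPM in male buds, with an adjusted p of 0.601 and a sign that turned with TMM before the filter. miR156, which targets SPL genes, held 38 and 35 reads in female and 17 and 31 reads in male buds. miR535 held 18 and 7 reads in female and 2 and 12 reads in male buds and did not pass (adjusted p = 0.372). Its log2 ratios were -1.01 in female and 2.93 in male buds with RLE factors. In the list of disease resistance regulators, 0 of 2 passed. There miR482, which targets NBS-LRR transcripts, stood at 1283 and 499 CPM in female and 712 and 580 CPM in male buds (adjusted p = 0.0976, and 0.0280 with RLE factors). The other member, miR472, stood at 65.1 and 31.2 CPM in female and 48.5 and 29.2 CPM in male buds.

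In the lists with a single tested family, 2 such families rose and that of the anther and pollen list did not pass. Over all 86 features, 39.5% were higher and 5.81% lower. miR858, which targets MYB regulators of flavonoid synthesis, went from 7151 to 15936 CPM in female and from 6853 to 13503 CPM in male buds (fitted log2 change 1.07, SE 0.35, adjusted p = 0.00839). Its ratios of 2.23 and 1.97 fell on either side of 2-fold, so the count by sex put it in female buds alone, and its call was lost with TMM before the filter (adjusted p = 0.387). The other family that rose was miR477, which is described with the sexes further on. In the anther and pollen list miR845, known in Arabidopsis pollen for its action on retrotransposons, held 10 and 5 reads in female and 7 and 15 reads in male buds and did not pass.

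**Figure D2:**
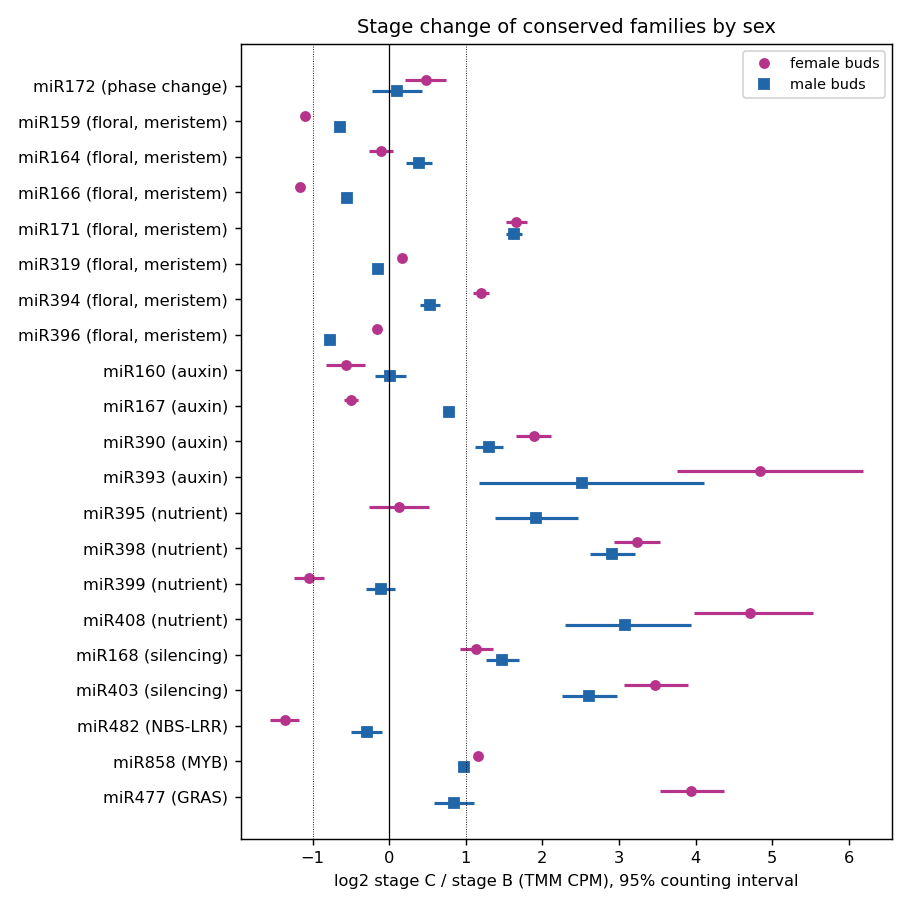
Log2 ratio of stage C to stage B (x axis, TMM CPM) in female buds (circles) and male buds (squares) for the 21 listed families with at least 100 reads in a library. Bars are 95% counting intervals and dotted lines mark 2-fold. miR398, miR171 and miR168 have nearly the same ratio in both sexes, while miR477 has 15.4 in female and 1.79 in male buds.

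Outside the lists, 4 of 8 tested families rose (50%, beside 39.5% of all 86 features). miR6478 went from 165 to 1398 CPM in female and from 118 to 647 CPM in male buds (fitted log2 change 2.77, SE 0.46, adjusted p = 4.55e-07). The other 3, miR1511, miR5139 and miR8155, held nearly the same reads as each other, 1 and 21 in female buds and 0 and 26 or 28 in male buds, so they may count as a single observation.

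Predicted miRNAs, which the authors numbered and to which no target or role is assigned here, held the largest fitted rise and the largest fitted fall of all tested rows. Of 52 tested, 20 rose (38.5%, beside 39.5% of all 86 features), 4 fell (7.69%, beside 5.81%) and 28 did not pass, with a median fitted change of 0.78. novel_100 held 2 reads in each stage B library and 113 and 79 reads in female and male buds at stage C (fitted log2 change 6.05, SE 0.64, adjusted p = 6.72e-16). novel_39 went from 9.65 to 418 CPM in female and from 22.4 to 345 CPM in male buds. novel_11 was more abundant, at 271 and 4709 CPM in female and 304 and 2839 CPM in male buds, with a fitted log2 change of 3.67 (SE 0.47, adjusted p = 2.28e-11). In all 3 the stage C levels of both sexes lay far above both stage B levels. novel_25 rose from 25.3 to 373 CPM and from 51.0 to 440 CPM, and novel_37 from 21.7 to 275 CPM in female buds but from 4 to 15 reads in male buds.

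The falls that held under every scaling were also led by predicted miRNAs. novel_56 fell from 164 to 10.4 CPM in female and from 99.4 to 5.84 CPM in male buds, a fitted log2 change of -3.99 (SE 0.58, adjusted p = 1.40e-09) with only 6 and 3 reads left at stage C. novel_44 fell from 197 to 15.6 CPM and from 154 to 25.3 CPM (-3.10, SE 0.50). novel_35 fell from 314 to 74.5 CPM and from 413 to 115 CPM (-1.95, SE 0.43). These 3 were past 2-fold in both sexes under all 4 scalings. novel_3, in the family test, was at 10630 and 6094 CPM in female and 8210 and 4526 CPM in male buds and fell by 0.83 (SE 0.35, adjusted p = 0.0459), a call absent with library totals.

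**Figure D3:**
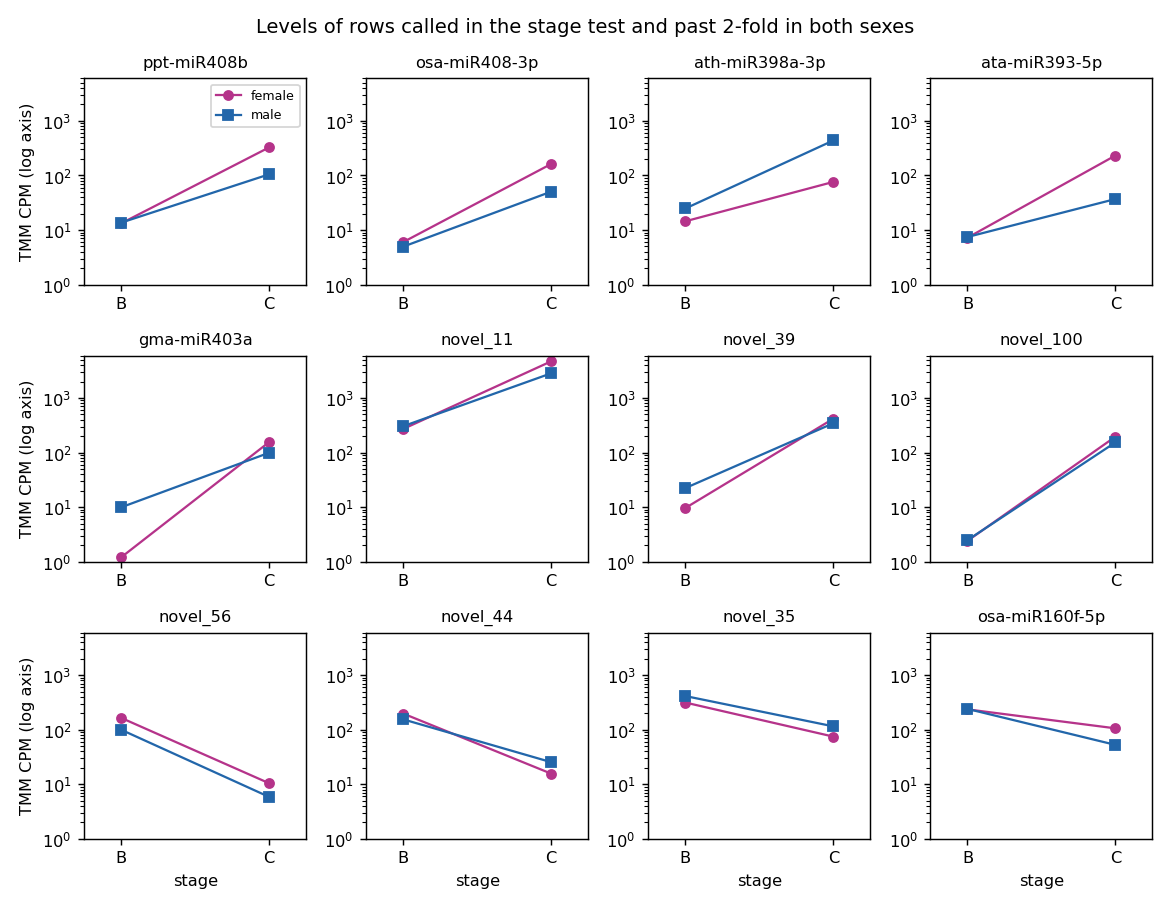
Levels of 12 rows at stages B and C (y axis, TMM CPM on a log axis) in female buds (circles) and male buds (squares), with 1 library per point and lines joining the libraries of a sex. The 8 rows in the upper panels are higher and the 4 in the bottom panels lower at stage C in both sexes, and ath-miR398a-3p ends higher in male buds (438 CPM) than in female buds (76.2 CPM).

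Single rows showed more than their families. In miR408, osa-miR408-3p went from 6.03 to 163 CPM in female and from 4.97 to 50.6 CPM in male buds, and ppt-miR408b from 13.3 to 327 and from 13.7 to 105 CPM. In miR403, gma-miR403a rose from 1 to 90 reads in female and from 8 to 51 reads in male buds (fitted log2 change 4.52, SE 0.60, adjusted p = 6.92e-11). Over all 226 tested rows, 31.9% were higher and 8.41% lower, and rows of a family are not independent. Of the abundant families, 11 of 19 tested rows of miR159 and 3 of 21 of miR166 fell, and 2 of miR166 rose. The ones with most reads among those of miR159, chosen after their values were seen, were ath-miR159b-3p, at 69790 and 26599 CPM in female and 40666 and 23317 CPM in male buds (-1.10, SE 0.41, adjusted p = 0.0238), and osa-miR159a.1, at 90286 and 41030 CPM and at 61996 and 32618 CPM (-1.03, SE 0.41, adjusted p = 0.0321). Both lost their calls with library totals (adjusted p = 0.0971 and 0.117). In miR166, osa-miR166m went from 52752 to 20463 CPM in female and from 37940 to 17750 CPM in male buds (-1.23, SE 0.41, adjusted p = 0.00974). mes-miR166i and osa-miR166e-3p of the same family fell by 1.47 and 1.33, but both lost their calls with library totals (adjusted p = 0.0910 and 0.145). osa-miR159c, osa-miR159d and osa-miR159e fell by 1.78, 1.69 and 1.60, each from 65 to 127 reads at stage B to 12 to 30 reads at stage C. These 3 were the miR159 rows that stayed called lower under all 4 scalings. osa-miR160f-5p fell from 235 to 106 CPM in female and from 240 to 52.6 CPM in male buds (-1.65, SE 0.44, adjusted p = 0.000897), although its family did not pass. The 5 rows with most reads were ath-miR159a and 4 miR166 rows, among them gma-miR166u, and they did not pass with TMM (fitted log2 changes of -0.94 to -0.72) and passed with RLE factors and with TMM before the filter.

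Whether a change belonged to a single sex was tested as the difference between the male and the female log2 stage change, with all 8 libraries in the fit. No row (0%) and no family (0%) passed in edgeR, and 0 rows and 0 families had an unadjusted p under 0.05. DESeq2 also called 0, with 5 rows and 1 family at an unadjusted p under 0.05. The median standard error of that difference was 2.13 for rows and 1.76 for families on the log2 scale. Its spread came from the monoecious buds, whose bisexual stage B library held 160129 reads, the fewest of the 8. The common dispersion of rows was 0.319, against 0.0780 in the joint test, and the part of depth in this was not tested. Differences of the size seen here were thus not detectable at 1 library per group, and no miRNA is shown to change in a single sex. The female and male values are therefore set side by side as a description. Of the 226 rows, 32 had log2 changes that differed by at least 1.5 between the sexes, as did 12 of the 86 families and predicted miRNAs.

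Among the 21 listed families with at least 100 reads in a library, the widest gap was that of miR477, known from poplar to target GRAS genes. It stood at 66.3 and 1019 CPM in female buds and at 292 and 524 CPM in male buds, so female buds were lowest at stage B and highest at stage C. The ratio was 15.4 in female (95% counting interval 11.6 to 20.6) and 1.79 in male buds (1.5 to 2.15). The male minus female difference was -3.10 on the log2 scale (counting interval -3.57 to -2.63), beyond counting error, while the edgeR test of the difference gave -3.31 (SE 1.64, adjusted p = 1). In the joint stage test the family was higher (2.35, SE 0.51, adjusted p = 5.93e-05), a call lost in DESeq2 (adjusted p = 0.143), with every near-identical row summed (0.0756) and with TMM before the filter (0.0507).

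All 5 tested rows of miR477 rose in the joint test (31.9% of all 226 tested rows did). The rule that named 4 of them asked for a gap of at least 1.5 between the sexes, so that these share the wider female rise is no separate result. mes-miR477d held 3 and 68 reads in female and 29 and 31 reads in male buds, and it had the smallest p of all rows in the test of the difference (log2 difference -4.43, SE 2.37, edgeR adjusted p = 1). mes-miR477a stood at 15.7 and 369 CPM in female and 78.3 and 175 CPM in male buds. nta-miR477a stood at 36.2 and 374 CPM in female and 147 and 181 CPM in male buds, and csi-miR477b at 4.82 and 106 CPM in female and 17.4 and 54.5 CPM in male buds. In each of these 4 rows the female library was below the male one at stage B and above it at stage C. The remaining row, aqc-miR477e, was past 2-fold in both sexes, with 3 and 22 reads in female and 4 and 15 reads in male buds and ratios of 10.5 and 5.88 (fitted log2 change 2.92, SE 0.81, adjusted p = 0.00144).

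Other rows with a wider rise in female buds had it on top of a rise in male buds. ata-miR393-5p stood at 7.24 and 232 CPM in female and at 7.46 and 37.0 CPM in male buds, with ratios of 32.1 and 4.96. ppt-miR408b had ratios of 24.7 and 7.69, and gma-miR403a of 129 and 9.99, the former of these resting on 1 read in female buds at stage B. The reverse held for ath-miR398a-3p, which held 12 and 44 reads in female and 20 and 225 reads in male buds, with ratios of 5.27 and 17.6.

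The rows with at least 50 reads that were past 2-fold downward in female buds alone and at least 1.5 apart from male buds did not pass the joint test with TMM. ath-miR395a held 55 and 3 reads in female and 15 and 14 reads in male buds, and tae-miR395b held nearly the same reads. The other 3 tested names of that sulphate family went the other way. osa-miR395c and bdi-miR395p-3p, with identical reads, rose from 13.3 to 100 CPM in female and from 11.2 to 97.4 CPM in male buds (fitted log2 change 3.00, SE 0.55, adjusted p = 9.60e-07). aly-miR395i rose from 3 to 21 reads in female and from 3 to 15 reads in male buds (3.09, SE 0.83, adjusted p = 0.00111). pab-miR3711 stood at 131 and 22.5 CPM in female and 57.2 and 72.1 CPM in male buds. novel_38 stood at 110 and 31.2 CPM in female and 72.1 and 60.4 CPM in male buds. With TMM before the filter novel_38 was past 2-fold downward in both sexes, with log2 ratios of -1.97 and -1.11. These 4 female-lower rows passed the joint test with RLE factors (adjusted p between 0.00644 and 0.0338) and also with TMM before the filter.

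The rows of the same kind that were higher in male buds alone were novel_19, at 299 and 241 CPM in female and 251 and 676 CPM in male buds, and mtr-miR4414a-5p, at 415 and 348 CPM in female and 230 and 547 CPM in male buds. In both, the male stage C library was the highest of the 4. Neither passed the joint test (adjusted p = 0.293 and 0.360), and the fitted sign of mtr-miR4414a-5p turned with TMM before the filter. Under that scaling both were within 2-fold in male buds as well, with male log2 ratios of 0.58 and 0.40. So was mtr-miR4414a-5p with RLE factors, at 0.95. novel_106, chosen after its values were seen, had 0 reads in both female libraries and 21 and 49 reads in male buds, so it has no female ratio. novel_41, chosen in the same way, held 1 and 4 reads in female and 1 and 107 reads in male buds, and was not tested because a single library reached 10 reads. No tested row with at least 50 reads was 2-fold lower in male buds with a gap of 1.5 to the female change.

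**Figure D4:**
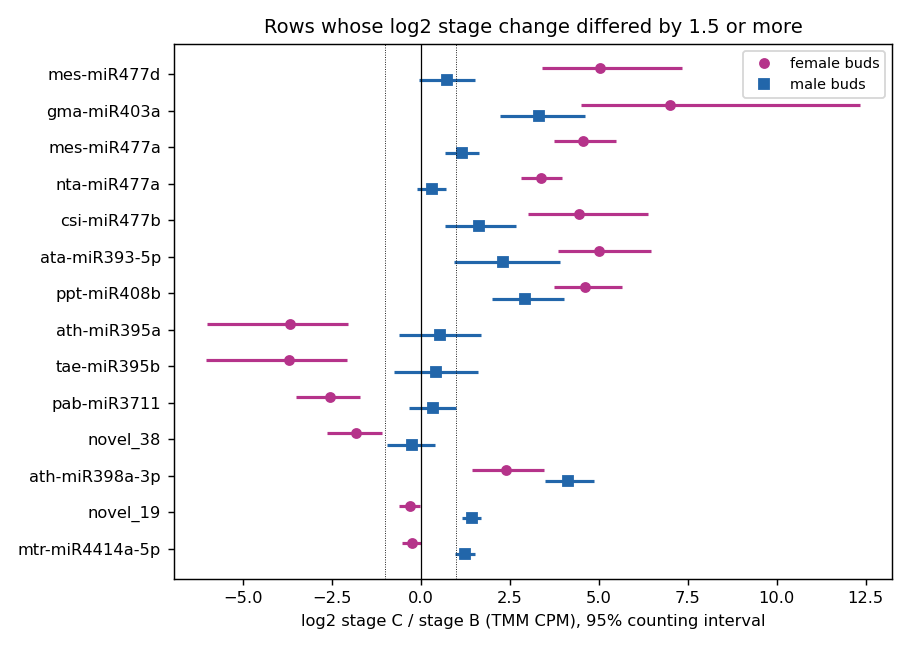
Log2 ratio of stage C to stage B (x axis, TMM CPM) in female buds (circles) and male buds (squares) for the 14 named rows with at least 50 reads whose changes differed by 1.5 or more between the sexes. Bars are 95% counting intervals and dotted lines mark 2-fold. The 4 miR477 rows have the higher ratio in female buds, and ath-miR395a, tae-miR395b and pab-miR3711 are below 0 in female and above 0 in male buds.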

How the data were processed

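The analysis used 4 libraries of dioecious buds, and the 4 monoecious libraries entered only where all 8 libraries are named. Per the labels' protocols, small RNA libraries were made from total RNA with an NEBNext kit, and the submitters' processing notes list CASAVA 1.8 and Bowtie. The build, miRNA database and mismatch limit were not given in these sources. The deposited table held raw read counts per miRNA row, of which 385 of 471 rows were named and 86 predicted, and the authors' TPM values, which equalled the deposited count scaled to its column total within 4.29e-05 and were not used further. Rows keep their deposited names, and sequences were not analysed here.

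Rows that reached 10 reads in 2 or more of the 4 libraries were tested in R 4.3.3 by edgeR 4.0.16 with its quasi-likelihood F-test (TMM factors after the filter, Benjamini-Hochberg adjustment over all rows or all families), in a model of sex type and stage with 1 residual degree of freedom and a common dispersion of 0.0780. Families were summed with near-identical rows (same family, within 5% or 2 reads in each of the 8 libraries) counted once, with miR165 joined to miR166 and miR157 to miR156. The difference between the sexes was tested on all 8 libraries with a stage effect for female, male and monoecious buds, and its spread came from the 2 monoecious bud types. Ratios within a sex have 95% intervals from an exact conditional binomial test. These intervals cover counting error alone and leave out the spread between trees or libraries, as each group had 1 library. PCR copies of a molecule could not be told from separate molecules, so the intervals may be too narrow even for counting error.

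Rows were named if called, past 2-fold in both sexes and at 50 or more reads (up to 10 per direction by fitted change), if past 2-fold in a sex with a log2 gap of at least 1.5 to the other sex and 50 or more reads (up to 8 per sex and direction), or if among the 5 with most reads. Families were named if listed and at 100 or more reads. Families outside this rule, namely miR156, miR169, miR472, miR535, miR845 and the 4 called outside the lists, and the rows osa-miR395c, bdi-miR395p-3p, aly-miR395i, aqc-miR477e, ath-miR159b-3p, osa-miR159a.1, novel_3, novel_41 and novel_106, were named after their values were seen. The members, the lists and the tests were chosen with earlier results of these data known. Alternatives were RLE factors, library totals, other filters, DESeq2 1.42.0, all 8 libraries, no sex type term, near-identical rows kept once or all summed, thinning and leaving out each library. TMM before the filter was added after the data were seen. The procedure was tested on simulated data.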

Additional observations from a re-analysis of the deposited data

Results flagged for a closer look

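Here 2 families and 1 row with opposite signs in female and male buds with TMM scaling are given again. They are examples, since log2 ratios had opposite signs in 47 of the 226 tested rows and 12 of the 86 families and predicted miRNAs. miR319 had a log2 stage change of 0.1661 in female and -0.1443 in male buds. The edgeR test of that difference gave -0.53 (SE 0.68, adjusted p = 1), and with library totals both sexes were above 0, at 0.93 and 0.24. miR167 had -0.4961 in female and 0.7733 in male buds. Its difference was 1.05 (SE 1.65, edgeR adjusted p = 1), and with library totals the values were 0.27 and 1.16. novel_19 had -0.3126 in female and 1.4285 in male buds. Its difference was 1.52 (SE 1.86, edgeR adjusted p = 1), and with library totals the values were 0.46 and 1.82. None of the 3 differences passed. Groups of 1 library allow no check for a library that stands apart from others of its group.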

How the results depend on the processing

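How many miRNAs were called depended on the scaling between the libraries. Leaving out 1 of the 4 libraries gave 0 to 0 calls higher or lower in rows and families, by construction a weak test, since the change is then the ratio of the other sex and the spread that of the monoecious buds. For novel_56 these fits gave -4.38 to -4.09 (SE 1.86 to 2.14) against -3.99 (SE 0.58). All 8 libraries gave 21 rows higher and 8 lower and 12 families and predicted miRNAs higher. Of rows called higher, TMM before the filter left 45. Rows called lower numbered 45 with RLE factors, 8 with library totals, 38 with TMM before the filter and 44 in DESeq2. Families called higher numbered 20 with TMM before the filter and 22 at a minimum of 50 reads, and families called lower 3 with library totals and 12 in DESeq2. In the count by sex, rows higher in both were 39 at a minimum of 50 reads, and rows lower in both were 3 with library totals, 24 with RLE, 41 with TMM before the filter and 4 when the interval had to clear 2-fold. Rows higher in female buds alone were 19 with library totals and 26 with TMM before the filter, and lower ones 7 and 8, and 18 at 50 reads. Rows higher in male buds alone were 7 with TMM before the filter and 7 at 50 reads, and lower ones 17 with RLE, 31 with TMM before the filter, 5 at 50 reads and 4 by interval. Thinning to 419169 reads gave 1 row past 2-fold in opposite directions. The difference between the sexes stayed at 0 calls in the alternatives run. Signs turned only in small changes or when a library was left out. With library totals miR396 had 0.1084, miR160 0.3002 and miR399 0.0013. With RLE factors miR164 had -0.0974, miR319 -0.2252 and miR167 -0.0967, and DESeq2 gave -0.0978, -0.2253 and -0.0963 and all 8 libraries -0.1109, -0.2389 and -0.1110. TMM before the filter gave these families -0.3664, -0.4945 and -0.3666, miR172 -0.2150 and mtr-miR4414a-5p -0.0072. Without single libraries the range was -0.3102 to 0.0440 for miR164, -0.4919 to 0.0239 for miR319, -0.6997 to 0.4328 for miR167, -0.2486 to 0.3319 for miR172 and -0.0773 to 1.5700 for miR395. It was -0.0431 to 3.2212 for nta-miR477a, -3.8186 to 0.2060 for ath-miR395a, -3.8445 to 0.1001 for tae-miR395b, -0.5158 to 1.0875 for novel_19 and -0.4559 to 0.9100 for mtr-miR4414a-5p. The model with sex type compares the stages within each sex type, and without that term 64 rows were higher and 18 lower. The cause of these shifts was not tested. Rows that reached 10 reads in fewer than 2 libraries were not tested, and intervals cover counting error only.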

Other observations

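Several rows named for the passenger strand rose, some of them in families that did not, a pattern picked after seeing the values. Over all 226 tested rows, 31.9% were higher and 8.41% lower. Of 17 tested rows whose name gives the arm known as the passenger in its family, 9 were higher, 1 lower and 7 did not pass. These 17 rows made 13 distinct groups, 7 of them higher and 1 lower. The 1 that fell was cca-miR396a-3p, from 50.7 to 17.3 CPM and from 33.6 to 9.74 CPM (-1.64, SE 0.65, edgeR adjusted p = 0.0309, and 0.195 with library totals). osa-miR166d-5p went from 332 to 721 CPM in female and from 323 to 1714 CPM in male buds (fitted log2 change 1.77, SE 0.44, edgeR adjusted p = 0.000422), although miR166 as a family had -0.86. ath-miR396a-3p rose from 51.9 to 225 CPM and from 60.9 to 185 CPM (1.86, SE 0.44, adjusted p = 0.000170), while ath-miR396b-5p, named for the guide strand, stood at 7566 and 4988 CPM in female and 8165 and 3340 CPM in male buds and did not pass (adjusted p = 0.0570). aly-miR167b-3p rose from 127 to 251 CPM and from 147 to 448 CPM (log2 change 1.3, SE 0.42, adjusted p = 0.00764). ath-miR390a-3p and ath-miR168a-3p rose by 3.41 and 1.42 in families that rose as well. Of the 5 rows given here that rose, ath-miR396a-3p and ath-miR390a-3p stayed called under all 4 scalings and the other rows did not. Arm names are those of the deposited rows, and no sequence was used to check which strand a row holds.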
